A study of Nothobranchius furzeri with 20 samples.

Results

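In liver RNA of the turquoise killifish, 35 genes separated every swim-tunnel library from every unexercised library and also met thresholds on the group means, out of 14335 genes with a mean of 1 CPM or more (CPM, the read count of a gene scaled to a common library total). These genes were chosen by their measured levels in the same 20 libraries. A gene was taken as swim-high when all 15 swim-tunnel libraries lay above all 5 unexercised ones, its mean in swim-tunnel fish of 9 weeks was at least 1.3 times the unexercised mean, and its 27-week mean was at least 0.75 times the 9-week swim-tunnel mean. A gene was taken as swim-low by the mirror of this rule; its 27-week mean could exceed the 9-week swim-tunnel mean by no more than the inverse of 0.75. The rule found 11 swim-high and 24 swim-low genes. CPM values are scaled by edgeR's trimmed mean of M-values (TMM), and 0.5 CPM was added to both sides of every ratio. Because these levels chose the genes, the differences between swim-tunnel and unexercised livers are given below as a description and support nothing by a test. Where a fit across all genes covers the same contrasts, the number of these genes it called is given beside the share of all genes called and is not read as evidence.

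Livers came from male Nothobranchius furzeri of strain MZM-04/10p in 3 groups: 5 libraries at 9 weeks with no perturbation, 5 at 9 weeks with the swim tunnel and 10 at 27 weeks with the swim tunnel. A swim tunnel makes fish hold their place against a current, a form of endurance exercise. The liver supplies glucose to working muscle and handles lipids and amino acids, so it takes part in the metabolic response to sustained swimming. The turquoise killifish is a short-lived annual fish used to study ageing, and this strain is wild-derived. Separate fish for each library are not stated in the labels, so p-values measure only the spread between these libraries, which may be technical. In whole liver, fewer cells of a type and less RNA per cell cannot be told apart.

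The labels hold no unexercised fish at 27 weeks, so the levels that 27-week livers would have without the swim tunnel were not measured. The titles of the unexercised libraries form one run of consecutive numbers and those of the 9-week swim-tunnel libraries another. Exercise and anything that follows the title numbers cannot be told apart. The 27-week titles form a lower-numbered run (replicates 1 to 5) and a higher-numbered run (replicates 6 to 10) under identical labels. Depth ran from 22.4 to 44.6 M counts per library. The TMM factor ran from 0.87 to 0.92 in 9-week swim-tunnel libraries, from 0.88 to 1.21 in unexercised ones and from 0.84 to 0.89 in the higher-numbered run. In the lower-numbered run it was 1.52 and 1.47 in replicates 4 and 5, which stood apart from the 1.04 to 1.14 of replicates 1 to 3. The identifiers in the files are not paired with gene names, and 0 of 26739 matched the RefSeq gene table, so the genes are described by identifier, level and length. Their functions, and the liver markers that would check the tissue, were not examined.

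Complete separation was rare. Of the 14335 genes, 16 (0.112%) had all 15 swim-tunnel libraries above all 5 unexercised ones, and 30 (0.209%) had them all below. The ratio threshold kept 11 and 24 of these, and the bound on the 27-week mean removed none. A mean under 10 CPM was found in 5 of 11 swim-high and 18 of 24 swim-low genes. The mean level had a median of 13.4 CPM in swim-high and 6.25 CPM in swim-low genes, against 10.3 CPM over all 14335. The lowest count in any library was 6 for a swim-high and 0 for a swim-low gene, and counting error alone limits the ratios of such genes.

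**Figure D1:**
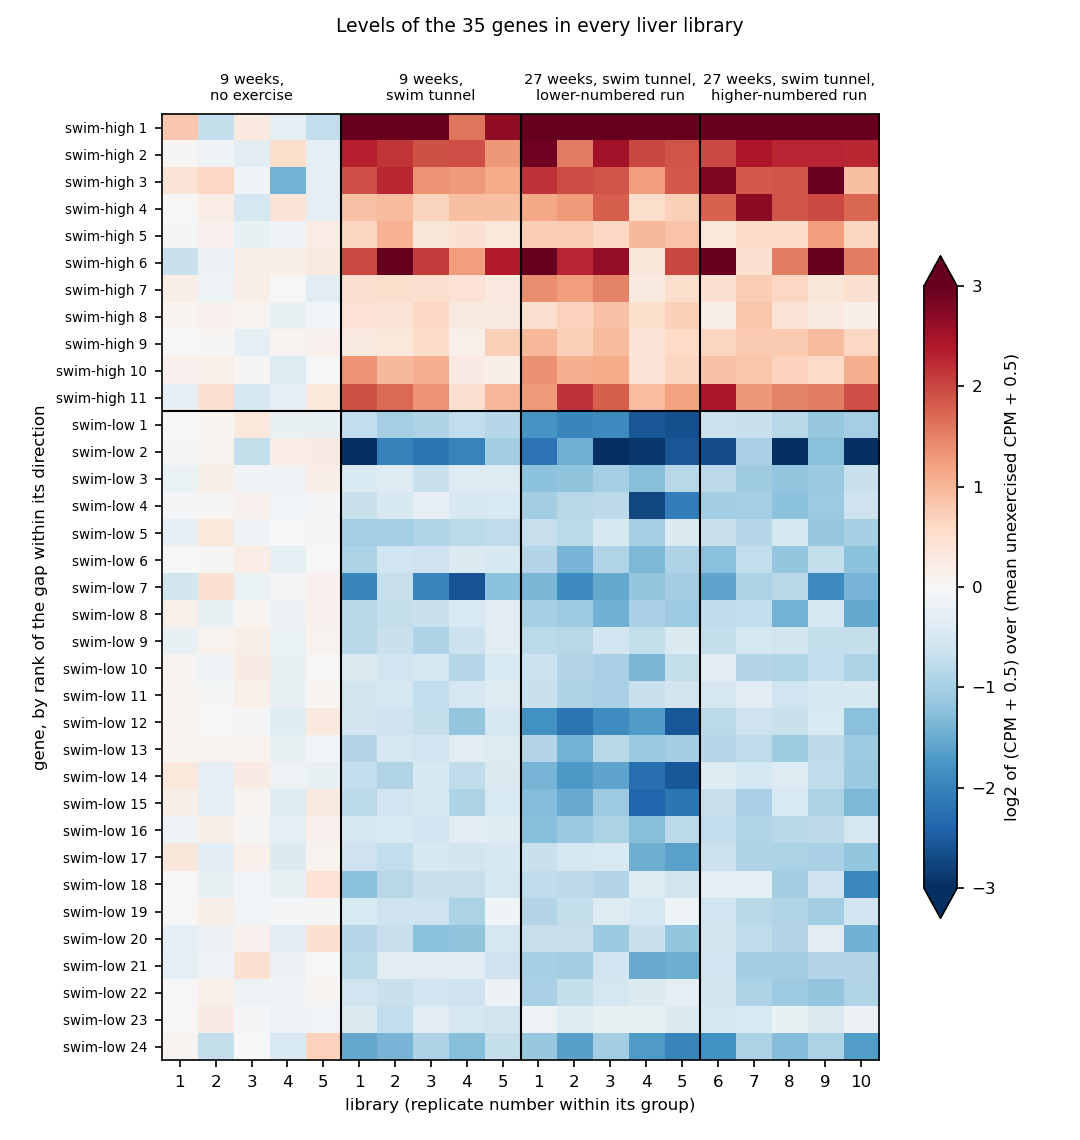
Each row is one of the 35 genes, ranked within its direction by the gap, and each column is a library, grouped by label and title run. Colour gives the log2 ratio of CPM + 0.5 to the unexercised mean, with values beyond 3 in size drawn in the end colours. In all 15 swim-tunnel libraries the 11 swim-high rows lie above the unexercised mean (toward red) and the 24 swim-low rows below it (toward blue), which is how the rule chose them. Small ratios are drawn close to white.

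The gap measures how clearly a gene separated: for a swim-high gene it is the lowest swim-tunnel library over the highest unexercised library, and for a swim-low gene the lowest unexercised library over the highest swim-tunnel library. It was 1.5 or more in 2 swim-high genes and in 0 swim-low genes. It was under 1.1 in 7 of 11 swim-high and 17 of 24 swim-low genes, so most members cleared the edge by a small step. The narrowest gap inside the rule was 1.001 for a swim-high and 1.002 for a swim-low gene. Just outside, genes that met every other condition had gaps of 0.979 and 0.994. The smallest 9-week ratio inside was 1.32 for swim-high genes, against 1.28 for the nearest of 5 separated genes left out. For swim-low genes the unexercised mean was at least 1.36 times the 9-week swim-tunnel mean, against 1.27 for the nearest of 6 left out.

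Nfu_g_1_008170 had the widest gap of the swim-high genes, 1.73. It had 1.59, 0.222, 0.965, 0.472 and 0.216 CPM in the unexercised livers (replicates 1 to 5). In 9-week swim-tunnel livers it had 36.5, 11.5, 14.8, 3.12 and 7.001 CPM. At 27 weeks it ran from 18.9 to 49.2 CPM, with a median of 32.7 CPM over 10 libraries. All swim-tunnel livers lay above all unexercised ones, which held only 6 to 50 counts each against 99 to 2496 counts. The 9-week ratio was 12.6 and the 27-week ratio to unexercised livers 28.7. On the log2 scale the 9-week ratio was 3.66, and it was 3.01 without swim-tunnel replicate 1, the highest 9-week library.

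Nfu_g_1_018732, by far the most abundant of the 35, had the next widest swim-high gap, 1.72. Its unexercised levels were 2065, 1850, 1592, 2898 and 1659 CPM. Its 9-week swim-tunnel levels were 10104, 8921, 7578, 7741 and 4987 CPM. At 27 weeks it ran from 5898 to 15204 CPM, with a median of 9697 CPM (n = 10). The lowest swim-tunnel liver, at 4987 CPM, lay well above the highest unexercised one, at 2898 CPM. The 9-week ratio was 3.91 and the 27-week ratio 4.77. Per kilobase of its 1231 bp gene length, its mean level was 1635 CPM without exercise, 6390 CPM at 9 weeks with the swim tunnel and 7798 CPM at 27 weeks.

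Nfu_g_1_010082 had the widest gap of the swim-low genes, 1.328. It had 7.17, 7.54, 9.11, 6.08 and 6.07 CPM in unexercised livers and 4.09, 3.38, 3.57, 4.13 and 3.74 CPM in 9-week swim-tunnel livers. The lower-numbered 27-week run had 1.74, 1.48, 1.54, 0.790 and 0.738 CPM. The higher-numbered run had 4.44, 4.32, 3.83, 2.99 and 3.29 CPM. The higher-numbered run lay around the 9-week swim-tunnel level and the lower-numbered run below it. The unexercised mean was 1.798 times the 9-week swim-tunnel mean.

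Nfu_g_1_003188, with a gap of 1.198, showed the largest 9-week ratio of the swim-low genes, the unexercised mean being 3.84 times the swim-tunnel mean. It had 5.13, 5.73, 3.07, 6.26 and 6.47 CPM in unexercised livers, and 0.0895, 0.925, 0.793, 0.945 and 2.34 CPM in 9-week swim-tunnel livers. At 27 weeks it ran from 0 to 2.48 CPM, with a median of 0.450 CPM (n = 10). The swim-tunnel libraries were scattered, with 0 to 84 counts each against 86 to 240 counts in the unexercised ones. The count of 0, in 27-week replicate 8, allows up to 3 counts or 0.132 CPM, for counting error alone.

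**Figure D2:**
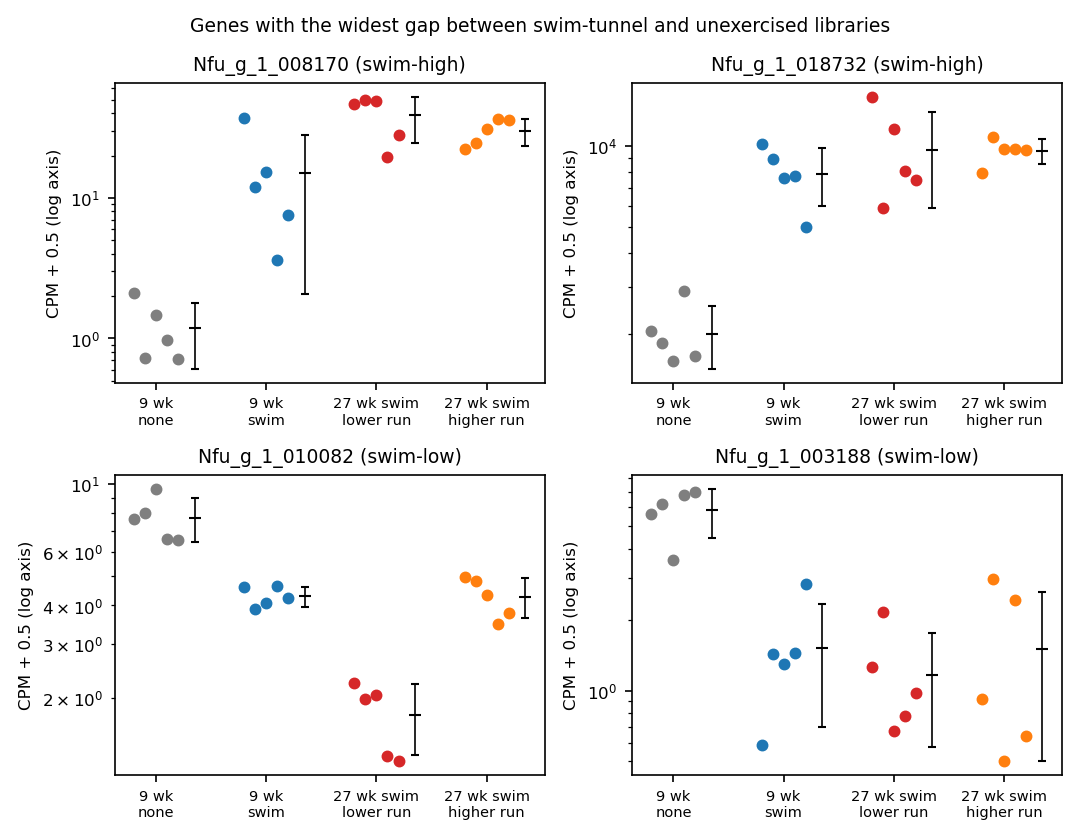
CPM + 0.5 on log axes for the 2 swim-high and the 2 swim-low genes with the widest gaps. Points are libraries, 5 per column, and bars give the mean ± SD, with the lower end stopped at 0 CPM. Nfu_g_1_018732 lies at 1592 to 2898 CPM without exercise and at 4987 to 15204 CPM in all swim-tunnel livers, and Nfu_g_1_010082 is lowest in the lower-numbered 27-week run.

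The 9 other swim-high genes were mostly separated by smaller ratios. Over all 11, the 9-week ratio had a median of 1.82 (1.32 to 12.6), and 5 genes passed 2-fold. The gene of rank 3 by gap had 0.620 to 4.18 CPM in unexercised livers. It had 5.997 to 13.9 CPM at 9 weeks and 5.12 to 23.2 CPM at 27 weeks with the swim tunnel, with a 9-week ratio of 3.15. The gene of rank 6 was spread widely: it had 0.574 to 1.56 CPM in unexercised livers, 3.59 to 14.2 CPM at 9 weeks with the swim tunnel and 1.67 to 23.1 CPM at 27 weeks, so its lowest 27-week library lay just above the highest unexercised one. The gene of rank 7 had 10.5 to 15.6 CPM without exercise and 16.6 to 19.5 CPM at 9 weeks with the swim tunnel. At 27 weeks it ran from 16.3 to 38.8 CPM. At the edge of the rule, the gene of rank 11 had 3.47 to 7.21 CPM without exercise and 7.22 to 20.4 CPM at 9 weeks with the swim tunnel, so its groups were all but touching although its 9-week ratio was 2.58. The coefficient of variation of the swim-high genes had a median of 26.2% in unexercised, 28.2% in 9-week swim-tunnel and 33.2% in 27-week libraries, against 18.2%, 16.4% and 33.9% over all 14335 genes.

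In the values that chose them, the swim-low genes formed a tighter set at 9 weeks than the swim-high ones. Under the rule a gene with a small ratio can separate completely only if its libraries vary little. Their unexercised mean was a median of 1.52 times the 9-week swim-tunnel mean (1.36 to 3.84), and 3 of 24 passed 2-fold. Their coefficient of variation had a median of 14.9% in both 9-week groups and 23.8% at 27 weeks. The gene of rank 4 by gap had 25.6 to 29.5 CPM without exercise and 16.9 to 22.7 CPM at 9 weeks with the swim tunnel. At 27 weeks it ran from 3.67 to 17.4 CPM, the lowest 27-week level relative to the 9-week swim-tunnel mean (0.623) of the 24. Rank 5 had 17.5 to 26.2 CPM without exercise, 9.98 to 12.2 CPM at 9 weeks and 9.16 to 15.6 CPM at 27 weeks with the swim tunnel, so its swim-tunnel levels were alike at both ages. The gene of rank 7, which had the second largest 9-week ratio, 2.90, had 6.86 to 14.2 CPM without exercise. It had 1.29 to 6.16 CPM at 9 weeks and 2.38 to 5.50 CPM at 27 weeks with the swim tunnel. Near the edge of the rule, the gene of rank 23 had 26.8 to 35.5 CPM without exercise. It had 17.7 to 24.0 CPM at 9 weeks and 20.5 to 26.6 CPM at 27 weeks with the swim tunnel.

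Some libraries set the edge of separation more often than others. Among the swim-low genes, unexercised replicate 4 was the lowest unexercised library in 12 of 24, and 9-week swim-tunnel replicate 5 was the highest swim-tunnel library in 6. Among the swim-high genes, unexercised replicate 2 was the highest unexercised library in 4 of 11. The lowest swim-tunnel library was 9-week replicate 4 or 5 in 3 genes each, 27-week replicate 4 in 3 and 27-week replicate 10 in 2. Without unexercised replicate 4 the rule gave 29 swim-high and 61 swim-low genes. That library had the lowest TMM factor of the unexercised ones, 0.88, and the part of scaling in these counts was not tested. Leaving out unexercised replicates 1, 2 and 5 singly gave 26, 23 and 19 swim-high and 30, 37 and 27 swim-low genes. Leaving out unexercised replicate 3 gave 11 swim-high and 27 swim-low genes. Without 9-week swim-tunnel replicate 4 the rule gave 20 swim-high genes, and without 27-week replicates 4 and 5 together 23 swim-high and 33 swim-low genes. Separation is easier with fewer libraries by construction, so such rises are not by themselves a property of the library left out.

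By library, the median log2 ratio of the 11 swim-high genes to their unexercised mean ran from -0.14 to 0.12 in unexercised livers. It ran from 0.47 to 1.35 at 9 weeks with the swim tunnel, from 0.54 to 1.78 in the lower-numbered run and from 0.84 to 1.78 in the higher-numbered run. These 3 swim-tunnel ranges overlap widely. For the 24 swim-low genes, the median ran from -0.20 to 0.09 in unexercised livers and from -0.78 to -0.47 at 9 weeks with the swim tunnel. It ran from -1.27 to -0.95 in the lower-numbered run and from -1.06 to -0.68 in the higher-numbered run. The lower-numbered run lay below all 9-week swim-tunnel libraries on this measure, and the higher-numbered run overlapped both.

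**Figure D3:**
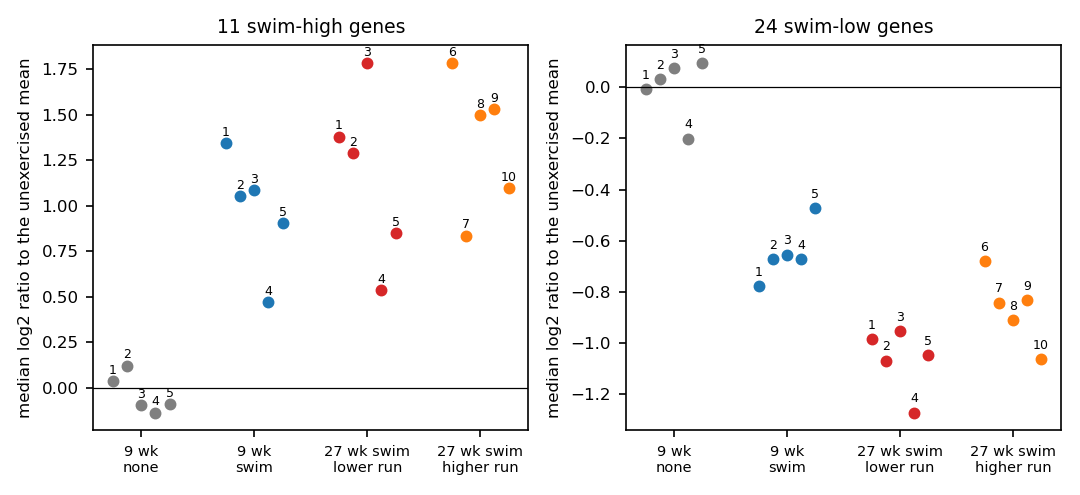
The median log2 ratio to the unexercised mean over the 11 swim-high genes (left) and the 24 swim-low genes (right), 1 point per library with its replicate number. Swim-high medians of 9-week swim-tunnel replicate 4 (0.47) and 27-week replicate 4 (0.54) are the lowest of the 15 swim-tunnel libraries. Swim-low medians of the lower-numbered 27-week run (-1.27 to -0.95) overlap those of the higher-numbered run (-1.06 to -0.68).

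At 27 weeks the genes stood as far from the unexercised level as at 9 weeks, or farther, in most cases. The 27-week mean exceeded the 9-week swim-tunnel mean in all 11 swim-high genes, with ratios of 1.04 to 2.27 and a median of 1.24. It was below it in 18 of 24 swim-low genes, where the ratio had a median of 0.818 (0.623 to 1.16). Over all 14335 genes the 27-week mean was the higher in 52.8%, and the median ratio was 1.03. The rule limits these ratios on one side and requires the 27-week libraries to clear the unexercised ones, so the counts describe the chosen genes. Against unexercised livers, 6 of 11 swim-high genes passed 2-fold at 27 weeks and 11 of 24 swim-low genes did. This contrast joins age with the swim tunnel, and no share of all genes is given beside these counts, so nothing is read from them.

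Whether the 2 title runs of the 27-week group differed in these genes was tested, since the rule sets no order between the runs. The rule does require both runs to clear the unexercised libraries on the same side, so genes in which either run crossed them were left out. The 35 genes were thus chosen in part on the 27-week values tested here, and their share called is not a like comparison with all genes. In a fit of the 10 27-week libraries (edgeR quasi-likelihood F-test, Benjamini-Hochberg adjustment over 16157 genes), 5 of the 35 genes differed at an adjusted p under 0.05, against 46% of all genes tested. The direction was the same in all 5, the lower-numbered run being the lower, and 1 was swim-high and 4 were swim-low. Among all genes called, 3247 were lower and 4191 higher in that run, and the split changed with the scaling. The TMM factor moved with the runs (1.04 to 1.52 against 0.84 to 0.89), and its part in these differences was not tested beyond the alternative scalings given with them. In the other 30 the difference did not pass the test, with unadjusted p under 0.05 in 1 swim-high and 1 swim-low gene beyond those called. The absolute log2 difference had a median of 0.22 over the 35 genes and of 0.59 over all genes. The choice of the genes bears on these medians too, so they are not a like comparison either. The 5 genes are named because the count is small, and 3 of them lie outside the naming rule.

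Nfu_g_1_010089 and Nfu_g_1_010082 differed most between the runs. Nfu_g_1_010089 had 1.25, 0.907, 1.05, 0.465 and 0.299 CPM in the lower-numbered run, and 3.06, 2.71, 3.03, 2.22 and 1.64 CPM in the higher-numbered run. The log2 difference was -1.68 ± 0.36 (SE, edgeR adjusted p = 0.0040). That of Nfu_g_1_010082 was -1.58 ± 0.26 (SE, edgeR adjusted p = 0.00079). The swim-low gene Nfu_g_1_022713 had 4.24, 3.17, 4.08, 4.67 and 2.35 CPM in the lower-numbered run and 8.96, 10.3, 10.0, 11.6 and 6.43 CPM in the higher-numbered run. Its log2 difference was -1.33 ± 0.22 (SE, edgeR adjusted p = 0.00074). In these 3 genes the runs did not overlap, as in 33.8% of the 14335 genes, and all 3 kept their direction and call under each of 16 alternatives.

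The other 2 calls depended on the settings. The swim-low gene Nfu_g_1_018634 had 25.4, 21.8, 29.5, 11.8 and 13.7 CPM in the lower-numbered run and 39.1, 32.2, 46.1, 32.7 and 24.7 CPM in the higher-numbered run, and the runs overlapped. Its log2 difference was -0.77 ± 0.25 (SE, edgeR adjusted p = 0.028), so its adjusted p lay near the threshold. Without replicate 4, 5, 6 or 8 singly the log2 difference was -0.73 to -0.63 with an adjusted p of 0.051 to 0.077. Without replicates 4 and 5 together it was -0.46, with an adjusted p of 0.106. Nfu_g_1_022871, the one swim-high gene called, had 7.64, 8.48, 12.2, 4.81 and 5.59 CPM in the lower-numbered run and 12.1, 23.2, 13.1, 13.9 and 11.7 CPM in the higher-numbered run. Its log2 difference was -0.93 ± 0.26 (SE, edgeR adjusted p = 0.015), and without replicates 4 and 5 it was -0.66, with an adjusted p of 0.073. When libraries were scaled by their totals alone, the log2 difference was -0.33 for Nfu_g_1_018634, with an adjusted p of 0.174, and -0.49 for Nfu_g_1_022871, with an adjusted p of 0.094. That scaling called 12 of the 35 genes, 9 higher and 3 lower in the lower-numbered run. Among all genes it called 8827, and 84.6% of these were higher in that run. It also moved the median log2 difference of all genes from 0.11 to 0.60.

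**Figure D4:**
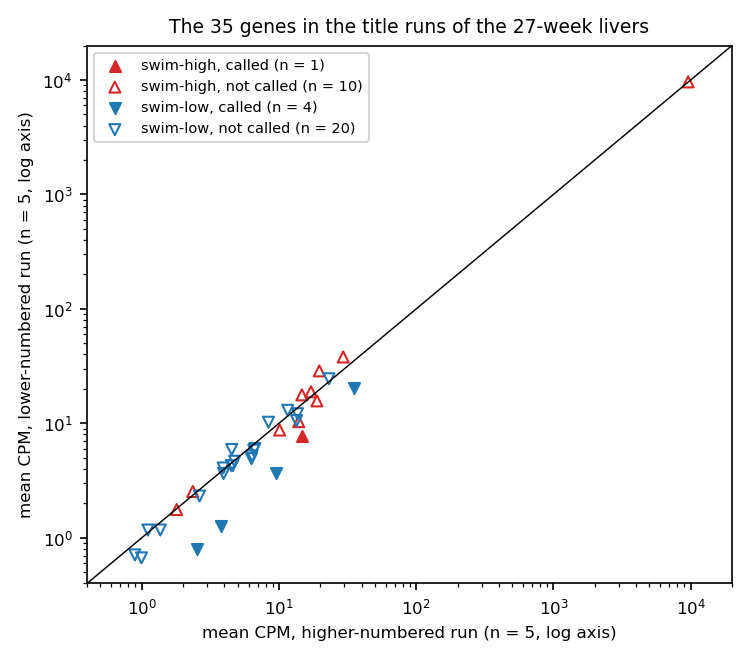
Mean CPM of the 35 genes in the lower-numbered against the higher-numbered 27-week run (n = 5 each, log axes), with the line of equal level. Filled symbols are the 5 genes called by edgeR, all lower in the lower-numbered run with TMM scaling. With library totals 9 genes were called higher in that run and 3 lower, and 84.6% of all genes called were higher.

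Among the swim-low genes, 6 of 24 stood in 3 pairs of adjacent rows of the deposited table, and 0 of 11 swim-high genes did. These genes were singled out after their rows were seen. The pairs were Nfu_g_1_002133 with Nfu_g_1_002132, Nfu_g_1_018352 with Nfu_g_1_018356 and Nfu_g_1_010089 with Nfu_g_1_010082. Whether adjacent rows are neighbours in the genome, or pieces of a single gene, is not given in the sources used here.

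Within each pair the ratio of the counts stayed within a 2-fold range over the 20 libraries. Both members of a pair met the same rule, so part of this likeness follows from the choice. Pairs of members that are not adjacent were not compared in this way, so the likeness is not shown to be particular to adjacent rows. The count of Nfu_g_1_002133 was 0.743 to 1.07 times that of Nfu_g_1_002132 in all 20 libraries. Their means were 10.9 and 13.1 CPM without exercise, 7.87 and 9.40 CPM at 9 weeks with the swim tunnel, and 5.61 and 6.20 CPM at 27 weeks. The count of Nfu_g_1_018352 was 0.533 to 0.803 times that of Nfu_g_1_018356. Their means were 9.54 and 12.9 CPM without exercise, 6.08 and 8.89 CPM at 9 weeks with the swim tunnel, and 4.39 and 6.35 CPM at 27 weeks. The count of Nfu_g_1_010089 was 0.405 to 0.793 times that of Nfu_g_1_010082, and this pair carried the run difference described above. Whether the members of a pair share reads was not tested.

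The swim-high genes had gene lengths of 733 to 7263 bp with a median of 2122 bp, and the swim-low genes of 240 to 11981 bp with a median of 1806 bp. The median of all 14335 genes was 2888 bp. Per kilobase, the mean level of the swim-high genes had a median of 0.811 CPM in unexercised, 3.73 CPM in 9-week swim-tunnel and 3.89 CPM in 27-week livers. That of the swim-low genes had a median of 4.88, 2.76 and 2.21 CPM in the same order. Over all genes and libraries the median was 3.90 CPM per kilobase.

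The rule chose the 35 genes on the levels of the same 3 groups, so calls between these groups follow in part from the choice, and nothing is read from their number. In the fit of all 3 groups (edgeR, 17118 genes), 3 of the 35 genes passed an adjusted p of 0.05 between swim-tunnel and unexercised livers at 9 weeks, against 0.0175% of all genes. The 0.0175% is these same 3 genes, 2 swim-high and 1 swim-low, so it is not a separate background. The share of all genes called at 9 weeks depended strongly on the fit. In a fit of the 9-week libraries only it was 7.73%, with 32 of the 35 called. With the 27-week runs as separate groups it was 6.19%, with 25 of the 35 called. Between 27-week and 9-week swim-tunnel livers 8 of the 35 passed, against 30.4% of all genes: 1 swim-high gene was higher and 7 swim-low genes were lower at 27 weeks.

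The list depended on how the libraries were scaled. Scaling by library totals alone, the rule gave 4 swim-high and 39 swim-low genes, of which 3 and 11 were among the 11 and 24. That scaling set the median log2 ratio of all genes at 9 weeks at -0.23, against -0.01 with TMM. DESeq2 size factors gave 11 and 22 genes and upper-quartile scaling 11 and 28. Under all 4 scalings 3 swim-high genes remained, Nfu_g_1_008170, Nfu_g_1_018732 and Nfu_g_1_022871, and 9 of the 24 swim-low genes, among them Nfu_g_1_010082, Nfu_g_1_003188 and Nfu_g_1_022713.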

How the data were processed

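Liver libraries were made with TruSeq RNA v2, per the labels' protocols. The authors deposited raw counts per gene identifier, and the submitters' processing notes name featureCounts 1.4.6-p4, STAR 2.4.1d and bcl2fastq 1.8.4. The sources used here give neither genome build nor strand setting nor the handling of multi-mapping reads, so overlapping or near-identical genes are uncertain. A second table the authors deposited as RPKM was treated as a score: its library totals were cycled down the table, a formula that matched 99.998% of values above 1 within 0.1%. It served to recover gene lengths only. No pair of libraries within a run agreed within counting noise (40 pairs, lowest chi-square per degree of freedom 41.4).

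The genes and the tests were chosen with earlier results of these data known. CPM used TMM factors over all 20 libraries. Fits used edgeR 4.0.16 in R 4.3.3 with filterByExpr, robust dispersions and the two-sided quasi-likelihood F-test. Standard errors of log2 differences were derived from the F statistic. Named genes are the 2 of each direction with the widest gap and the members with the largest run differences in either direction, at most 2 each. With TMM none was called higher in the lower-numbered run. Others are named where a count was 5 or fewer or a pattern was seen. The gene lists and markers planned by name could not be applied. Alternatives were DESeq2 1.42.0 (size factors and Wald test), upper-quartile scaling, library totals, limma 3.58.1 voom with sample weights, no filter, other thresholds and left-out libraries. The scripts were tested on simulated data.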

Additional observations from a re-analysis of the deposited data

Results flagged for a closer look

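The 12 named genes and the 2 medians by library, each in the 3 labelled groups, gave 42 sets of values. In 3 of them one library stood far from its group. Chance alone gives about 1 in every 20 sets, so 3 of 42 is not read as more than chance. The sets share libraries and the 27-week sets pool the 2 title runs, so that rate is only a guide. Nfu_g_1_022871 had 23.2 CPM in 27-week replicate 7, against 4.81 to 13.9 CPM in the other 27-week libraries. The same gene had 5.35 CPM in 9-week swim-tunnel replicate 3, below the 6.24 to 6.57 CPM of the others in its group. Nfu_g_1_002132 had 7.99 CPM in that library, against 9.40 to 9.93 CPM. Each of these libraries lay on the swim-tunnel side of the unexercised ones, as the rule requires.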

How the results depend on the processing

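Scaling, the ratio threshold and single libraries changed the number of genes that met the rule. With library totals there were 4 swim-high and 39 swim-low genes, and with a 9-week ratio of 1.5 or more 13 swim-low genes. Leaving out single libraries gave 11 to 29 swim-high and 24 to 61 swim-low genes. Leaving out 27-week replicates 4 and 5 together gave 23 swim-high genes. Without the lower-numbered 27-week run 66 swim-high and 113 swim-low genes met the rule, and without the higher-numbered run 32 and 39. Of these genes, 11 and 22 were among the 11 and 24 without the lower-numbered run, and 10 and 20 without the higher-numbered run. Fewer libraries make separation easier by construction. The TMM factors were also computed anew each time, and some of the 35 genes no longer met the rule. Between the 27-week runs, 12 of the 35 genes were called with library totals and 8 with limma-voom in place of 5, and the cause was not tested. The other 14 alternatives gave 4 to 7. Of all genes, 8827 were called with library totals and 6259 to 8152 under the other 15 alternatives, against 7438. The next counts are for contrasts on which the genes were chosen, so they are no evidence for the genes. Between swim-tunnel and unexercised livers at 9 weeks 32 of the 35 were called in a fit of the 9-week libraries only (7.73% of all genes), 25 with the 27-week runs as separate groups (6.19%) and 19 with the DESeq2 Wald test (2.35%), in place of 3 (0.0175%). Between 27-week and 9-week swim-tunnel livers 14 were called with the runs apart (44.5% of all genes) and 4 with library totals (28.3%), in place of 8 (30.4%). With single libraries left out the count was 3 to 9 (22.7% to 34.2% of all genes). It was 5 without 9-week swim-tunnel replicate 2 or 3 and 3 without replicate 4. The 9-week log2 ratio of Nfu_g_1_010082 was -1.07 with library totals and -0.85 with TMM. The labels give no replicate numbers, so no pairing was fitted. Genes of a few CPM are limited by their counts, and a list resting on 5 unexercised libraries is limited by their number.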
